A study of Mus musculus with 155 samples.

Results

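The expression of 9 genes is described here cell by cell: 8 genes of DNA replication, Mcm5, Pcna, Rrm1, Rrm2, Gins2, Cdc6, Slbp and Tipin, and the growth factor receptor gene Egfr. They were taken by symbol, as 9 of the 3422 genes of a deposited table of single brain cells, by a rule that uses no measured value. The symbols were, however, chosen with earlier results of these data known, so the list is not independent of them. The cells were sorted by reporter fluorescence from the subventricular zone, where new neurons are born in the adult brain, together with the corpus callosum, a nearby white matter tract. Their polyadenylated RNA was read by SMART-Seq2, which covers full-length transcripts. All mice were 8 to 10 weeks old, and the labels give 5 mice per condition.

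The NB population held 37 Gad67-GFP+ cells of healthy mice of strain CB6-Tg(Gad1-EGFP)G42Zjh/J. The NBL population held 27 Gad67-GFP+ cells of the same strain, taken 6 days after injection of LPC, a lysolipid that strips myelin. The OL population held 22 Olig2-Tomato+ cells of strain Olig2-tdTomato TH39Gsat/Mmcd, also 6 days after LPC, and the O population 29 such cells of healthy mice. The OligNBL population held 40 double positive cells of the cross of CB6-Tg(Gad1-EGFP)G42Zjh/J with Olig2-tdTomato TH39Gsat/Mmcd. Their lesion label places them 6 days after LPC, but their titles carry a control mark, so their lesion state is not settled by the labels. Every cell thus came from a reporter strain, and strain cannot be told apart from the sorting gate. No mouse is named for any cell, so each population is 1 sample, and no test between populations was made.

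The values are a normalized signal in which column totals differed by 0.101%, so depth per cell is unknown and no value is a read count. A median of 950.5 (OL) to 1397 (OligNBL) genes was detected per cell. A gene is called present in a cell when it is among that cell's 500 highest genes; the value at place 500 had a median of 10.8 and a range of 10.8 to 13.2. The 2 NB cells with fewer than 500 detected genes were left out of presence, which leaves 153 of all cells. Shares carry exact 95% binomial intervals (Clopper-Pearson), for counting error alone and as if cells were independent. An exact 0 can be a missed transcript: Gapdh was listed at 0 in 65 cells and Actb in 4. Median markers present per cell were 7, 6, 7, 3 and 2 of 18 measured neuroblast genes in NB, NBL, OligNBL, OL and O, and 0, 0, 0, 9 and 9 of 14 mature oligodendrocyte genes. Of 8 endothelial markers only Pecam1 was measured, and it was present in all 27 NBL and 29 O cells, in 32 of 35 NB cells, in 38 of 40 OligNBL cells and in 21 of 22 OL cells.

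Before DNA can be copied, the origin recognition complex and CDC6 load the MCM2-7 helicase, of which MCM5 is a subunit, onto origins. The GINS complex, to which GINS2 belongs, then joins the active helicase. PCNA is the sliding clamp of the DNA polymerases, TIPIN with TIMELESS steadies the moving fork, and RRM1 and RRM2 are the large and small subunits of ribonucleotide reductase, which makes the deoxyribonucleotides. SLBP binds the stem-loop of histone mRNAs, whose products package the new DNA. E2F transcription factors switch on many of these genes at the start of S phase. EGFR marks activated stem cells and transit amplifying progenitors of the subventricular zone, and its ligand EGF drives their division. Mature oligodendrocytes and late neuroblasts are mostly non-dividing, whereas oligodendrocyte progenitors and early neuroblasts divide.

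The stretch of 250 bases before the RefSeq start is shown for 5 of the genes, because Mcm5, Cdc6 and Egfr were found in largely the same cells and Pcna and Rrm2 in others. The sequences are from RefSeq on GRCm38.p6, 5′ to 3′ in the direction of transcription; 7 of the 9 genes had an entry, and Gins2 and Tipin had none. Capitals mark E2F-type sites, read on either strand as the word TTCCCGC, the word TTGGCGC, the word TTCGCGC or the word TTGCCGC. The windows are chr8:75109259-75109508 on the plus strand for Mcm5, chr11:98907901-98908150 on the plus strand for Cdc6, chr11:16751953-16752202 on the plus strand for Egfr, chr2:132253181-132253430 on the minus strand for Pcna and chr12:24708004-24708253 on the plus strand for Rrm2.
Mcm5: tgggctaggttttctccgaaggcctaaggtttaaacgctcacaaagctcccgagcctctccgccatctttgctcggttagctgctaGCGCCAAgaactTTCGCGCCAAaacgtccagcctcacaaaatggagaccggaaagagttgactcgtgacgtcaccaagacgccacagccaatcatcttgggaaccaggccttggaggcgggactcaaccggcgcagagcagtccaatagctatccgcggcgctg
Cdc6: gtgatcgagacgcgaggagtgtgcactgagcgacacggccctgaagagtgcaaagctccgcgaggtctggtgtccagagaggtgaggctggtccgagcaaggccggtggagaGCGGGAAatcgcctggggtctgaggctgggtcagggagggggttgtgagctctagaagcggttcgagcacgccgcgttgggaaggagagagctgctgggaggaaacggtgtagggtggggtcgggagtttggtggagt
Egfr: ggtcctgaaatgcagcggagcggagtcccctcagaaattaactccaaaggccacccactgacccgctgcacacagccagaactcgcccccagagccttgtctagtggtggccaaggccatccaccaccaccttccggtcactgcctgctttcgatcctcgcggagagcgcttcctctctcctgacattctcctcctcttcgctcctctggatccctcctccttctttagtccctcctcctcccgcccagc
Pcna: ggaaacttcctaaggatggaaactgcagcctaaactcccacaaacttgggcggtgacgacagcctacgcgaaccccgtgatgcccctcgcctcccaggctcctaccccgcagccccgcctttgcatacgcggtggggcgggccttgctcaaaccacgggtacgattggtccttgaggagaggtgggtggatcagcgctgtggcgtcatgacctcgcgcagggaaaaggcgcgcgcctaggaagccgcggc
Rrm2: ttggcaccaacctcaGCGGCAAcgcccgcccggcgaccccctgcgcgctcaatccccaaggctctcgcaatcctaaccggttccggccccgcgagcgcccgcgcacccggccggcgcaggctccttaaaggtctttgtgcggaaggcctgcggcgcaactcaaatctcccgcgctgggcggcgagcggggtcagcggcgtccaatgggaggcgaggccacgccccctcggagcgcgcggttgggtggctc

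Mcm5 had 3 such words, beginning 164, 152 and 149 bases before the start, of which the last 2 overlap. Rrm2 had 1 at 235 bases, Rrm1 had 1 at 67 bases and Cdc6 had 1 near the middle of its window. The Pcna, Slbp and Egfr windows held none of these letters. At least 1 word occurred in 4 of the 7 windows and in 7.89% of all 32851 RefSeq promoter windows of this length. The CCAAT word, on either strand, was in 5 of the 7 windows (Mcm5, Pcna, Rrm1, Rrm2 and Slbp) and in 33.8% of all windows. A match of letters shows no binding. On GRCm38 with GENCODE vM21 annotation the gene bodies lie at chr8:75109569-75128439 (Mcm5), chr2:132249162-132253314 (Pcna), chr7:102441695-102469771 (Rrm1), chr12:24708241-24714146 (Rrm2), chr8:120578633-120589304 (Gins2), chr11:98907801-98923940 (Cdc6), chr5:33634952-33652574 (Slbp), chr9:64281581-64305424 (Tipin) and chr11:16752203-16918158 (Egfr). The annotations place some starts differently: by GENCODE the Cdc6 window lies wholly inside the gene body, and the Pcna and Rrm2 windows overlap theirs, so the Cdc6 word is not upstream of the GENCODE start.

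The 9 genes lay on both sides of the usual gene of the table. Over all cells, Cdc6 was above 0 in 15, Tipin in 17, Egfr in 18, Mcm5 in 24, Gins2 and Pcna in 28 each, Rrm2 in 57, Rrm1 in 63 and Slbp in 90, where the median gene of the table was above 0 in 46. Presence ran from 11 cells (Rrm1, Cdc6 and Egfr) to 29 cells (Rrm2) of 153, or from 7.19% to 19%, where the median gene was present in 10.5%; Rrm2 and Slbp (16.3%) lay above it and the other 7 below. Values of 1000 or more were rarer: 10 cells for Rrm2, 3 for Cdc6, 2 each for Mcm5 and Rrm1, and 1 each for Pcna, Gins2, Slbp, Tipin and Egfr.

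**Figure D1:**
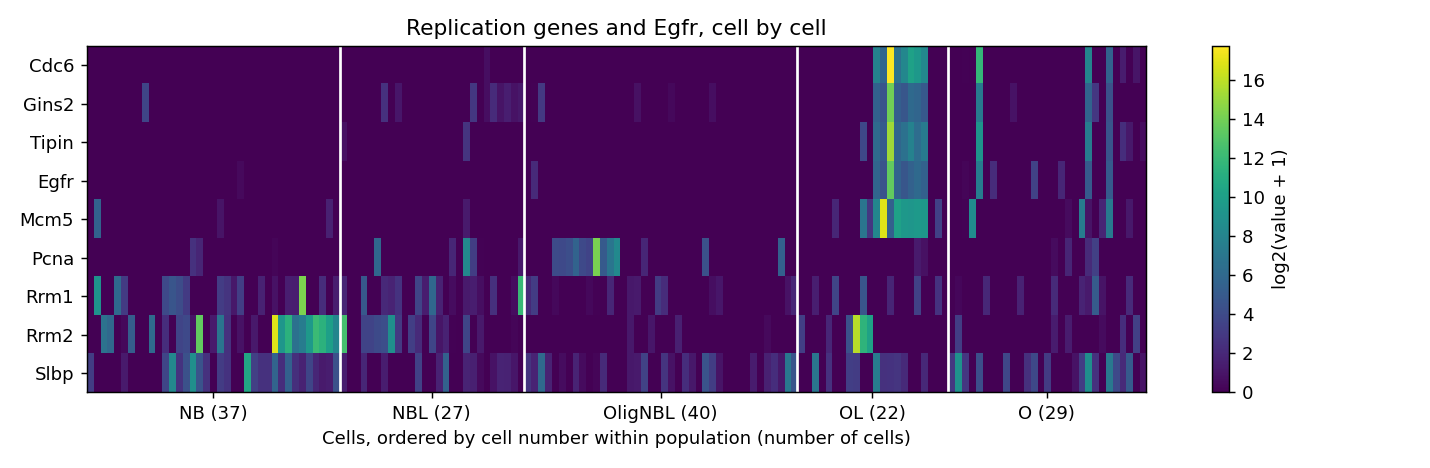
Level of each gene, as log2(value + 1) in colour, in each cell, ordered by cell number within population (number of cells in brackets). Cdc6, Gins2, Tipin, Egfr and Mcm5 light up together in 8 neighbouring OL cells and in a few O cells, Pcna in 10 neighbouring OligNBL cells and Rrm2 in a stretch of NB cells, while Rrm1 and Slbp are scattered.

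The licensing gene Cdc6, the helicase gene Gins2 and the fork gene Tipin were present in the Tomato+ populations OL and O and nearly nowhere else. Cdc6 was present in 8 of 22 OL cells (36.4%, interval 17.2% to 59.3%) and 3 of 29 O cells (10.3%, interval 2.19% to 27.4%). Gins2 was present in the same numbers of OL and O cells and in 1 NB cell, at 11.9. Tipin was present in 9 OL cells (40.9%, interval 20.7% to 63.6%) and 3 O cells. In 0 of 35 NB, 0 of 27 NBL and 0 of 40 OligNBL cells was Cdc6 or Tipin present, which allows shares of up to 10.0%, 12.8% and 8.81%. All 40 OligNBL cells were listed at 0 for Cdc6, Tipin and Mcm5.

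Egfr was present in the same cells as Cdc6, while Tipin was also in 1 OL cell and Gins2 in 1 NB cell without it. It was present in 8 of 22 OL cells (36.4%, interval 17.2% to 59.3%), in 3 of 29 O cells (10.3%, interval 2.19% to 27.4%) and in no NB, NBL or OligNBL cell. Its level, here the average of log2(value + 1) over cells ± the SD over the same cells, was highest in OL (2.33 ± 3.58, n = 22 cells) and next in O (0.87 ± 1.93, n = 29). OligNBL (0.06 ± 0.34, n = 40) and NB (0.01 ± 0.07, n = 37) came below, and all 27 NBL cells were listed at 0. The OL and O levels lie within the spread between cells, and the 3 low populations do not differ beyond theirs. The highest Egfr value outside the Tomato+ cells was 3.35, in OligNBL cell CRBT11; the value nearest below presence was 10.2, in O cell CRBT206.

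Cdc6, Gins2, Tipin and Egfr were all present in the same 11 cells: the 8 consecutively named OL cells CRBT183 to CRBT190 and the O cells CRBT197, CRBT214 and CRBT217. In CRBT183 to CRBT190 in that order, Cdc6 read 246, 57.98, 219719, 100, 295, 1168, 703 and 311. Egfr read 54.95, 22.1, 11580, 50.3, 26.5, 44.5, 64.7 and 44.9. Tipin read 68.5, 31.6, 38832, 56.1, 98.8, 236, 79.7 and 156. CRBT185 was the high cell for all 3 genes, and CRBT184 beside it was the low one.

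Gins2 read 47.3, 24, 15253, 37.8, 26.3, 66.1, 53.4 and 30.7 in CRBT183 to CRBT190, with the same high and low cell. The order of Mcm5 was different: it read 295, 119021, 42.7, 1168, 703, 654, 751 and 684, so CRBT184 was its high cell and CRBT185 its low one. In the other 14 OL cells Cdc6, Gins2 and Egfr were listed at 0. Outside the stretch, CRBT181 had Mcm5 at 116.3 and Tipin at 13.5.

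**Figure D2:**
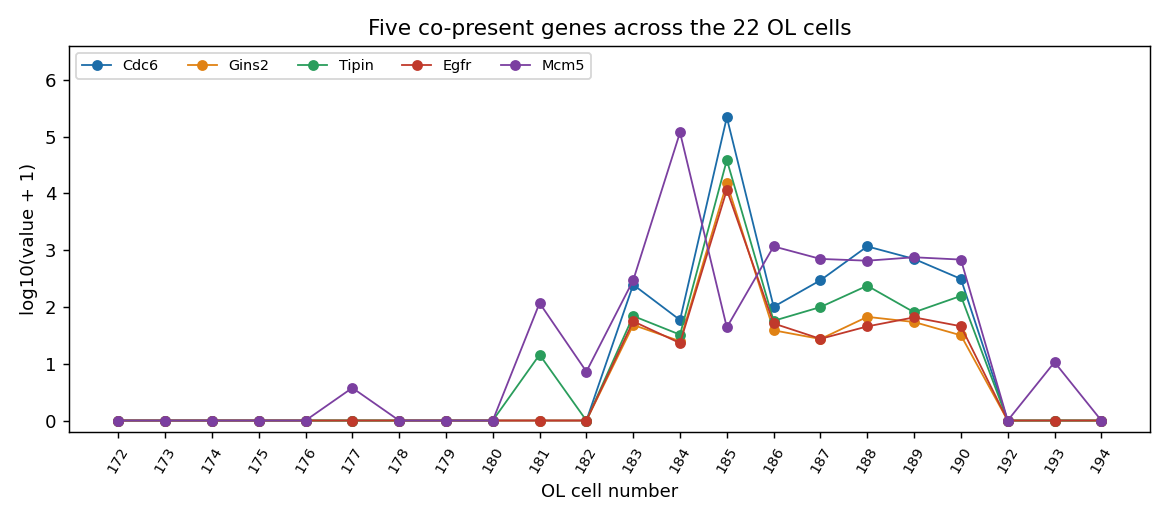
Cdc6, Gins2, Tipin, Egfr and Mcm5 in each of the 22 OL cells in order of cell number, on a log10(value + 1) axis, with 1 point per cell joined by lines. All 5 are above 0 from CRBT183 to CRBT190, with Mcm5 peaking in CRBT184 and the other genes in CRBT185.

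Most of the summed normalized value of each gene lay in 1 cell. Such values go with a gene's place in its cell: at place 9, Mcm5 in CRBT184 and Rrm2 in NB cell CRBT46 both read 119021. Shares of a sum and ratios of values are therefore not amounts of RNA. Over the 8 cells, CRBT185 held 98.7% of the Cdc6 sum, 98.2% each of the Gins2 and Tipin sums and 97.4% of the Egfr sum, and CRBT184 held 96.5% of the Mcm5 sum. Within those cells Cdc6 took place 6 from the top, Mcm5 place 9, Tipin 19, Gins2 34 and Egfr 39. This was the usual shape of genes shared by these cells: 240 genes (7.01% of the table) were present in all 8, and the median share of the highest cell among them was 96.1%. Of the 240, 72 were present in no other OL cell, Cdc6, Gins2 and Egfr among them. Clustering by all genes but the 9 put cells CRBT183 to CRBT190 into a set of their own, 1 of 20 sets of alike cells. The cells are thus alike across the table and not independent draws for these genes. Why neighbouring cells share genes at such unequal values was not tested.

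The 3 O cells read as follows. CRBT197 had Cdc6 at 3565, Tipin at 576, Egfr at 171 and Gins2 at 152, with Mcm5 at 0. CRBT214 had Cdc6 at 262, Tipin at 177.7, Gins2 at 50.7 and Egfr at 31.1, with Mcm5 at 0.956. CRBT217 had Mcm5 at 153, Cdc6 at 47.3, Egfr at 31.96, Tipin at 23.2 and Gins2 at 20.3. These O cells belong to 3 different sets of alike cells. Some proportions were alike in a pair of cells picked after the values were seen, OL cell CRBT185 and O cell CRBT197. Cdc6 was 5.66 and 6.18 times Tipin in them and Egfr 0.298 and 0.296 times, but Gins2 was 0.393 and 0.263 times. Across all 11 cells the Cdc6 to Tipin ratio ran from 1.47 (CRBT214) to 8.81 (CRBT189) and the Egfr to Tipin ratio from 0.175 (CRBT214) to 1.38 (CRBT217).

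Mcm5, the helicase subunit, was present in 9 of 22 OL cells (40.9%, interval 20.7% to 63.6%) and 3 of 29 O cells (10.3%). In OL these were CRBT181 and CRBT183 to CRBT190, and in O CRBT196 (388), CRBT213 (173.3) and CRBT217 (153). It was present in 9 of the 11 cells with Egfr. Titles also carry a bracketed number within the population, and the following was seen after the values were known. OL cell CRBT184, the Mcm5 peak, and O cell CRBT213 both carry number 22, and O cell CRBT196 carries number 2. OL cell CRBT185, the Cdc6, Gins2, Tipin and Egfr peak, and O cell CRBT214 both carry number 23, and O cell CRBT197 carries number 3. OL cell CRBT188, with the next highest Cdc6 value (1168) of its population, and O cell CRBT217 both carry number 26. The O cells that carry the other numbers of the OL stretch, 21, 24, 25, 27 and 28 (CRBT212, CRBT215, CRBT216, CRBT21 and CRBT218), were all listed at 0 for Cdc6, Tipin and Egfr. Gins2 and Mcm5 were also at 0 in them, except for Gins2 at 6.42 in CRBT215 and Mcm5 at 2.58 in CRBT216, both below presence. What the number stands for is not given in the labels. Whether it marks a well or an index, and whether reads passed between libraries, was not tested. The NBL cells numbered 22, 23 and 26 (CRBT75, CRBT76 and CRBT79) had Cdc6 at 0, 0 and 0.571. Number 23 was also carried by the highest Pcna cells of OligNBL (CRBT107) and NBL (CRBT76).

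The 11 cells with Egfr carried mature oligodendrocyte genes. Cnp, a myelin enzyme, and Trf, transferrin, were present in 11 of 11, as were Cldn11 and Ptgds. Of all 51 Tomato+ cells Trf was present in 51, Cnp and Ptgds in 47 and Cldn11 in 41. Other markers of the same list were less widespread in the 11: Gsn was present in 4 of the 11 and 38 of the 40 other Tomato+ cells, Apod in 3 and 28, Opalin in 1 and 20, and Ugt8a in 1 and 12. Mobp was present in 8 of the 11 and 9 of the 40. Pdgfra and Cspg4, which define oligodendrocyte progenitors, were present in 0 of the 11, and in 5 and 7 of the 51. Between 7 and 10 of 14 mature oligodendrocyte markers were present in each of the 11 cells, and 0 or 1 of 9 progenitor markers. Of 18 neuroblast markers 0 to 4 were present per cell. Nrxn3 was present in 9 of the 11 and 5 of the 40, Stmn1 in 9 and 14, and Dlx1 in 7 and 4. Dcx was present in 0 of the 11 and 10 of the 40, and Cd24a in 0 and 0. Pdgfra, Cspg4 and Olig1 were listed at 0 in both peak cells, CRBT184 and CRBT185. The part of these marker levels in the Egfr and replication values was not tested.

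Pcna, the polymerase clamp, was present in other cells: 12 of 40 OligNBL (30%, interval 16.6% to 46.5%), 2 of 27 NBL (7.41%, interval 0.910% to 24.3%) and no NB, OL or O cell. In OL that allows a share of up to 15.4%. The OligNBL cells were CRBT101 to CRBT110, all 10 in a row, with CRBT129 (20.3) and CRBT140 (42.3). CRBT101 to CRBT110 read 15.7, 14.2, 18.4, 49.2, 13.8, 10.8, 18391, 31.2, 118.8 and 348. CRBT107 stood far above the rest and held 96.7% of the sum, and CRBT106, at 10.8, was the last inside the presence rule. In these 10 cells 160 genes were present throughout, with a median highest-cell share of 96.8%. The NBL values were 59.1 in CRBT62 and 325 in CRBT76.

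Rrm2, the regulated subunit of ribonucleotide reductase, was present in more cells than any other of the 9 genes. It was present in 18 of 35 NB cells (51.4%, interval 34% to 68.6%), 7 of 27 NBL cells (25.9%, interval 11.1% to 46.3%), 4 of 22 OL cells (18.2%, interval 5.19% to 40.3%) and no OligNBL or O cell. Of the NB cells, 11 form a set of alike cells, where it read 36.2 in CRBT22, 119021, 654, 2753, 95.2 and 173.3 in CRBT46 to CRBT50, and 779, 4401, 2681, 1025 and 263 in CRBT52 to CRBT56. CRBT46 held 90.2% of that sum, beside a median of 90.6% over the genes present in all 11. NB cell CRBT35 read 11580, outside the set. In NBL the highest cells were CRBT57 (5935) and CRBT64 (465), and the other 5 lay between 11.1 and 18.4. CRBT57 fell, with NBL cell CRBT59, into the same set as the 11 NB cells, so that set crosses the population label. In OL the cells were CRBT179 to CRBT182, at 20.2, 59402, 2959 and 1201, directly before the Cdc6 and Egfr stretch, in which Rrm2 was 0 throughout.

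**Figure D3:**
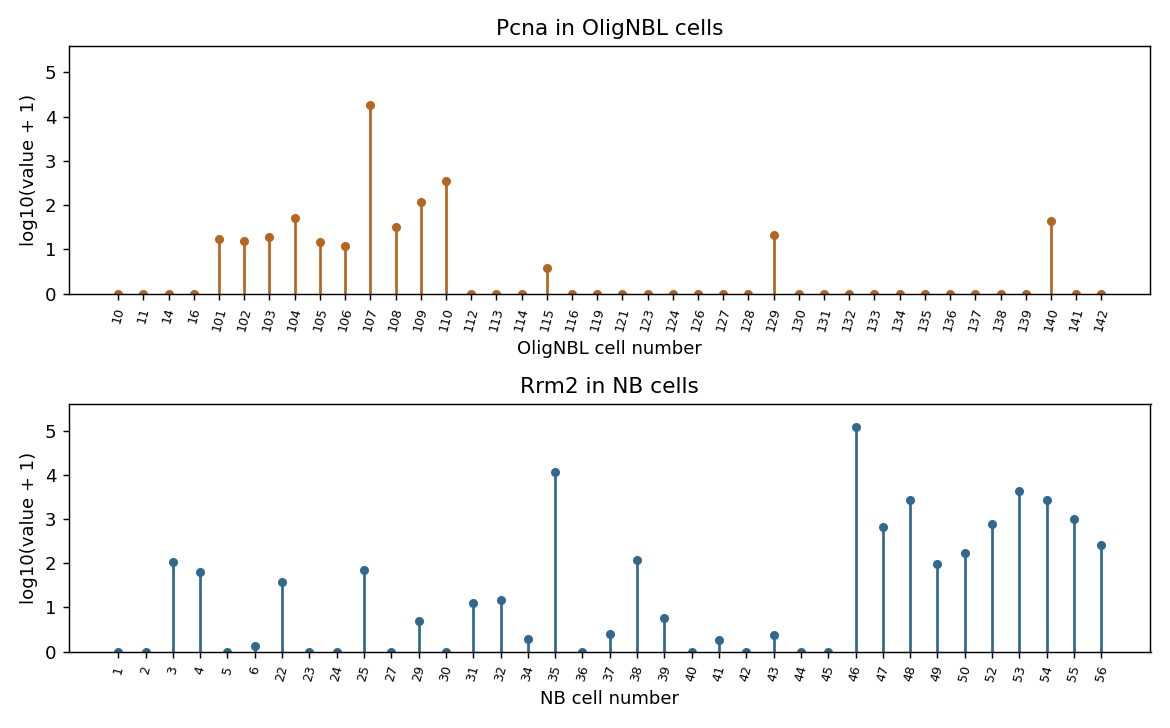
Pcna in the 40 OligNBL cells (upper) and Rrm2 in the 37 NB cells (lower), 1 stem per cell in order of cell number, on a log10(value + 1) axis. Pcna is present throughout CRBT101 to CRBT110 with its peak in CRBT107, and Rrm2 throughout CRBT46 to CRBT56 with its peak in CRBT46 and a further high cell, CRBT35.

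Rrm1, the large subunit, was above 0 in 63 cells but present in 11: 4 NB, 4 NBL, 2 OL and 1 O. The NB cells read 14.1, 24.3, 16.2 (CRBT29, CRBT30 and CRBT31) and 19641 (CRBT50), and the NBL cells 29.1, 11.7, 59.4 and 4171 (CRBT60, CRBT68, CRBT71 and CRBT84). In both populations 1 of these cells was high and the rest read 59.4 or less. The 2 NB cells left out of presence also carried it, CRBT2 at 528 and CRBT5 at 69.5. No OligNBL cell exceeded 7.96.

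Slbp, the histone mRNA binder, was the most widely detected, above 0 in 90 cells, and mostly low. It was present in 10 of 35 NB (28.6%, interval 14.6% to 46.3%), 8 of 29 O (27.6%, interval 12.7% to 47.2%), 4 of 40 OligNBL, 2 of 22 OL and 1 of 27 NBL cells. Values of 100 or more were found in NB cells CRBT30 (306), CRBT34 (465) and CRBT42 (1606), O cells CRBT21 (528), CRBT214 (465) and CRBT217 (141.8), OL cells CRBT174 (118.8) and CRBT183 (173.3) and OligNBL cell CRBT141 (138.7). These were scattered over the numbers, unlike the stretches of Cdc6, Gins2, Tipin, Egfr, Mcm5, Pcna and Rrm2. Slbp was present in 4 of the 11 cells with Egfr, OL cell CRBT183 and all 3 O cells.

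**Figure D4:**
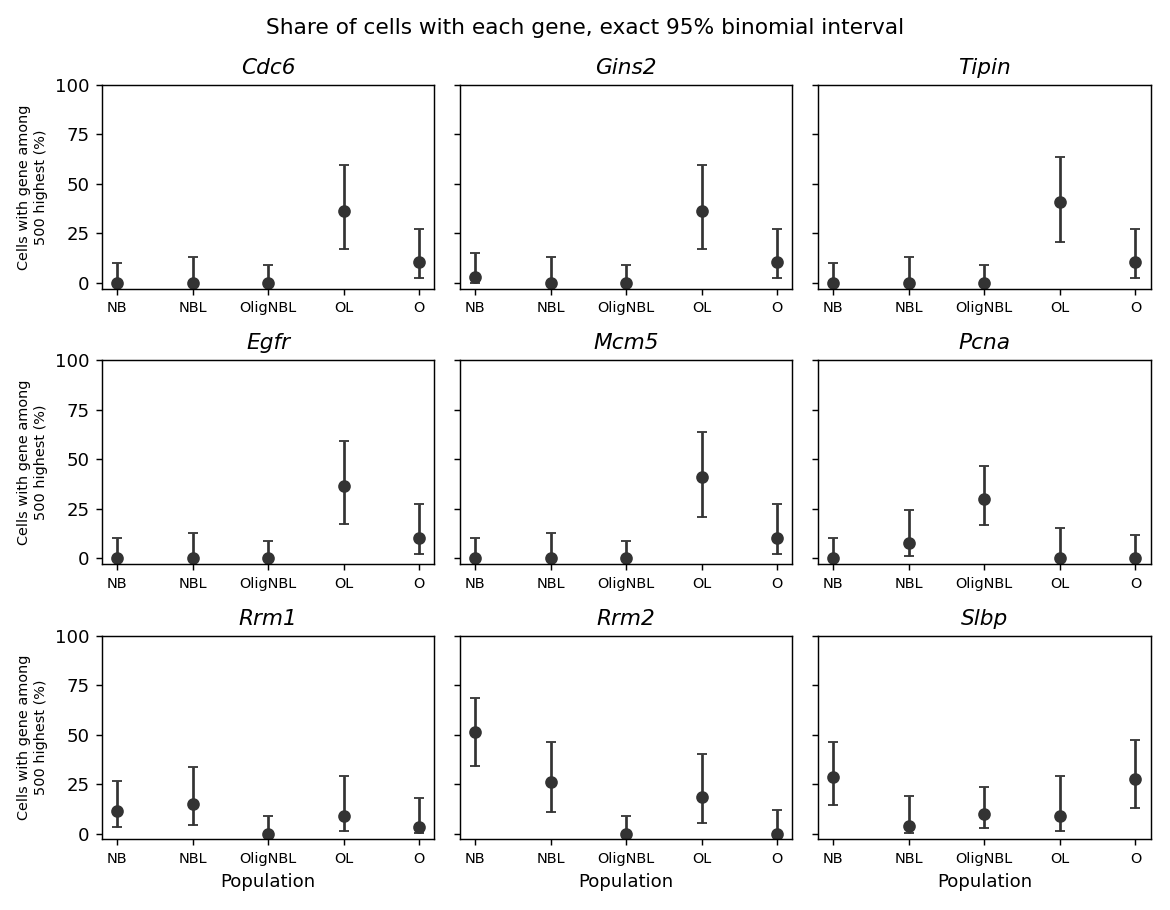
Share of cells in which each gene was present, as points with exact 95% binomial intervals, for NB (35 cells), NBL (27), OligNBL (40), OL (22) and O (29). Cdc6, Gins2, Tipin, Egfr and Mcm5 share an OL value of 36.4% or 40.9% over an O value of 10.3%, Pcna is highest in OligNBL (30%), Rrm2 in NB (51.4%), and Slbp in NB and O.

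Co-presence in the same cell split the 9 genes. The number of the 8 replication genes present per cell was 1.91 ± 1.93 in OL, 0.94 ± 0.80 in NB, 0.72 ± 1.33 in O, 0.52 ± 0.75 in NBL and 0.40 ± 0.55 in OligNBL (mean ± SD over cells). The order of the lower 4 depends on the rule: with any value above 0 as presence, NBL minus NB turned from -0.42 to 0.31 and O minus NB from -0.22 to 0.05. The latter was also 0.02 without NB cells CRBT22 and CRBT46 to CRBT56, and the OligNBL mean fell to 0.20 without CRBT101 to CRBT110. At least 2 were present in 9 of 22 OL cells (40.9%, interval 20.7% to 63.6%), 10 of 35 NB cells (28.6%, interval 14.6% to 46.3%), 4 of 27 NBL cells (14.8%, interval 4.19% to 33.7%), 3 of 29 O cells (10.3%, interval 2.19% to 27.4%) and 1 of 40 OligNBL cells (2.50%, interval 0.0633% to 13.2%). At least 4 were present in 9 OL and 3 O cells and in none elsewhere; no NB, NBL or OligNBL cell had more than 2. Without cells CRBT183 to CRBT190 the OL share with at least 2 was 7.14% and the mean 0.64.

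Each of the 11 Egfr cells had replication genes, and no cell had Egfr without one. Replication genes without Egfr were found in 23 NB, 10 NBL, 15 OligNBL, 6 OL and 8 O cells. Pcna was in none of the 11 Egfr cells, and neither were Rrm1 and Rrm2. Pcna was never present with Mcm5, Gins2, Cdc6, Tipin or Rrm1, and met Rrm2 in 2 NBL cells and Slbp in 1 OligNBL cell. With Pcna in 14 of 153 cells and each of the genes it never met in 11 or 12, the counts alone would give few shared cells. Whether Pcna met them less often than that was not tested. Of all 36 pairs of the 9 genes, 24 shared at least 1 cell. The share of all pairs of genes that did so was not counted, so whether 24 is many or few is not known. The 2 ribonucleotide reductase genes were present together in 5 cells, 45.5% of the 11 Rrm1 cells and 17.2% of the 29 Rrm2 cells. Rrm2 and Slbp met in 6 cells, all NB. OL cell CRBT181 held Mcm5, Tipin, Rrm1 (25.04) and Rrm2 (2959) together and had Egfr at 0.

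**Figure D5:**
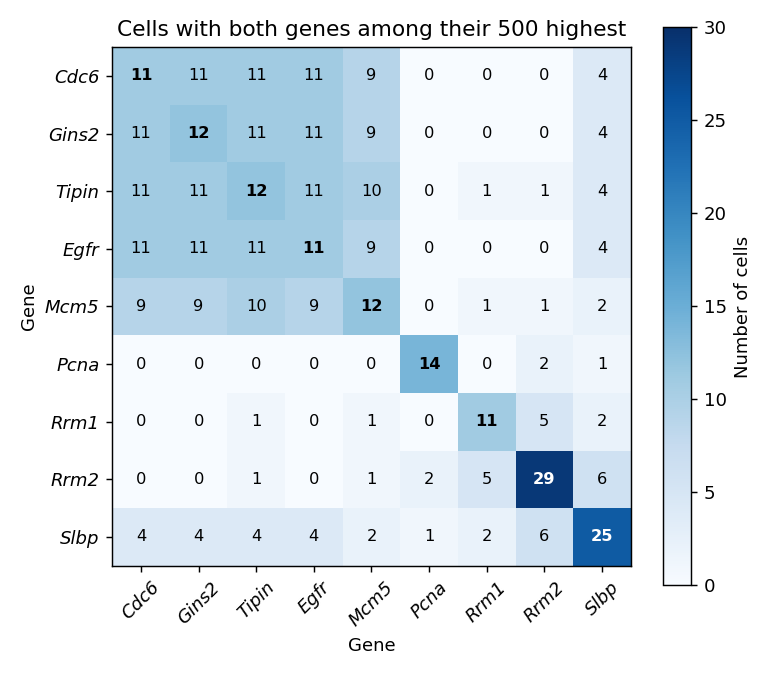
Number of cells, of 153 used, in which both genes of a pair were present, with each gene's own count on the diagonal; darker blue means more cells. Cdc6, Gins2, Tipin and Egfr share 11 cells in every pairing and 9 or 10 with Mcm5, whereas Pcna shares 0 cells with any of them.

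Levels over all cells moved in the same groups, given as a description since cells share preparation and normalization. Pearson's r of log2(value + 1) was 0.98 for Cdc6 with Tipin, 0.96 for Cdc6 with Egfr, 0.94 for Tipin with Egfr, 0.93 for Cdc6 with Gins2 and 0.91 for Gins2 with both Tipin and Egfr. The median of these 6 pairs was 0.94 as Pearson's r and 0.63 as Spearman's rho, where 0.0457% of all pairs of genes reached an r of 0.9 and the median pair had -0.03. These 4 genes were grouped by the cells they share, so their high r was largely set by that choice. Over all 36 pairs of the 9 genes the median r was 0.02. The median of the 6 pairs was 0.80 (0.70 to 0.92) without OL cells CRBT183 to CRBT190. Mcm5 with the 4 genes gave 0.58 to 0.65. The other 26 pairs lay between -0.16 and 0.19.

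Genes among the most like each of the 9 over all cells, taken from genes above 0 in at least 10 cells, were mostly not replication genes. For Cdc6 they included Kif22 and Cep55 (r = 0.98 each), for Tipin Cdc6 (0.98) and Rfc4 (0.97), and for Egfr Cdc6, Kif22 and Gm14305 (0.96 each). For Gins2 they were Cdc6, Eda2r and Kif22 (0.93 each), and for Mcm5 Eif3d (0.96), Parp2 (0.95) and Ttc4 (0.94). Rfc4 is a subunit of the clamp loader, Kif22 a chromosome motor and Cep55 an abscission protein. Pcna was most like Bcl10 (0.86), Chmp2b and Ppp1r18 (0.85 each), and Rrm2 most like Psmd1 (0.90), a proteasome subunit, Anp32e (0.82) and Kif4 (0.79). Rrm1 reached 0.48 with Supt5 and Mlf2 and 0.45 with Klf7, and Slbp 0.39 with Scyl3, 0.38 with Gm19087 and 0.36 with Cflar.

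Between the Tomato+ populations, OL was higher than O by at least 1 in level for 5 of the 8 replication genes and for Egfr, and lower by 1 for none. Of all genes measured, 15.9% were higher and 15.7% lower by as much. The differences of levels, OL minus O, were 3.29 for Mcm5, 2.42 for Cdc6, 2.05 for Tipin, 1.73 for Rrm2, 1.59 for Gins2, 1.46 for Egfr, 0.20 for Rrm1, -0.18 for Pcna and -0.70 for Slbp. The median over the 8 replication genes was 1.66 and over all genes -0.10. Each of these differences is smaller than the SD between OL cells of its gene (4.95 for Mcm5, 5.05 for Cdc6). Without OL cells CRBT183 to CRBT190 they became 0.11 for Mcm5, -0.96 for Cdc6, -0.60 for Tipin, -0.73 for Gins2 and -0.87 for Egfr, while Rrm2 gave 2.96, and 1 gene was then higher and 1 lower by at least 1. Leaving out CRBT180 to CRBT182 instead took the Rrm2 difference to 0.09. The excess of OL over O in these 6 genes thus came from 2 stretches of alike cells.

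Between the GFP+ populations, 2 of the 8 replication genes were lower in NBL than in NB by at least 1 and none was higher, against 17.3% lower and 17.4% higher among all genes. Rrm2 had a level of 4.44 ± 4.79 in NB and 2.11 ± 2.99 in NBL, a difference of -2.34, and Slbp 2.55 ± 2.66 and 0.91 ± 1.30, a difference of -1.65. Pcna differed by 0.64 and Gins2 by 0.41, and the other 5 genes, Egfr included, by less than 0.2 either way. The median over the replication genes was -0.07 and over all genes 0.00. Without NB cells CRBT22 and CRBT46 to CRBT56, the alike cells named above, the Rrm2 difference was -0.06 and 1 gene, Slbp, was left past 1. The NBL cells of the same set, CRBT57 and CRBT59, were kept in.

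In the double positive cells set against NBL, 1 replication gene was higher and 2 lower by at least 1, against 25.7% and 20.3% of all genes. Pcna was higher by 1.03 (1.79 ± 3.12 against 0.77 ± 2.0), Rrm2 lower (difference -2.0) and Rrm1 lower (difference -1.15). Set against OL, 1 was higher and 5 lower, with Egfr also lower; the shares of all genes were 27.3% and 21.1%. OligNBL minus OL gave -4.25 for Mcm5, -3.38 for Cdc6, -2.92 for Tipin, -2.28 for Egfr, -2.20 for Gins2, -2.04 for Rrm2 and 1.70 for Pcna. Without OL cells CRBT183 to CRBT190 the differences were -1.08 for Mcm5, 0.00 for Cdc6, -0.28 for Tipin, 0.06 for Egfr, 0.12 for Gins2, -3.27 for Rrm2 and 1.79 for Pcna. The Rrm2 difference rested on CRBT180 to CRBT182, without which it was -0.40. Without OligNBL cells CRBT101 to CRBT110 the Pcna difference was -0.37 against NBL and 0.30 against OL, so that neither reached 1.

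Between the healthy populations, O was lower than NB by at least 1 for 2 of the 8 replication genes and higher for none, where 20.7% and 19.4% of all genes were so. The level of Rrm2 was 0.42 ± 0.96 in O against 4.44 ± 4.79 in NB, and that of Rrm1 0.60 ± 1.15 against 1.83 ± 2.96. Without the 11 alike NB cells the Rrm2 difference, O minus NB, was -1.75 in place of -4.03. Cdc6 was 0.96, Tipin 0.87, Egfr 0.86, Mcm5 0.74 and Gins2 0.63 higher in O, all short of 1. These 5 comparisons share populations and are not independent of each other.

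The wider S phase list of 60 genes had 10 measured besides the 8. Against O, 4 of these were at least 1 higher in OL and 1 lower, beside 15.9% and 15.7% of all genes. Against OL, 1 was higher in OligNBL and 6 lower, beside 27.3% and 21.1% of all genes. Whether these counts rest on OL cells CRBT183 to CRBT190 was not tested. Rfc3, a clamp loader subunit, was present in all 11 Egfr cells and in 9 OligNBL cells, with 25059 in OL cell CRBT185. Orc6, of the origin recognition complex, was present in all 11 and in 12 of the 51 Tomato+ cells, with 29968 in CRBT185. Rpa1 and Rpa2, of the single-strand binding complex, were present in 10 and 9 of the 11; Rpa2 read 59402 in CRBT184 and Rpa1 read 3565 in CRBT185. Timeless, the partner of Tipin, was present in 0 of the 11 and in 10 of 40 OligNBL cells. Pola1, the polymerase alpha catalytic subunit, was present in 11 of 27 NBL cells, and Ubr7 in 16 of 29 O cells. Of the 11 Egfr cells, Pola1 was present in 4, Ubr7 and Nasp in 2 each, and Tk1 and Cdca7 in 0. In the 40 other Tomato+ cells Pola1 was present in 5, Ubr7 in 16, Nasp in 6, Timeless and Tk1 in 4 each and Cdca7 in 1.

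Of 56 listed G2 and M phase genes 9 were measured; against O, 1 was at least 1 higher in OL and 1 lower, beside the 15.9% and 15.7% of all genes. Top2a and Birc5, needed for chromosome separation, were present in 0 of the 11 Egfr cells, and Smc4 and Tmpo in 1 each. In the 40 other Tomato+ cells Top2a was present in 0, Birc5 in 2, Smc4 in 12 and Tmpo in 1. Kif22 and Cep55, outside that list, were among the genes most like Cdc6. Anp32e, a histone chaperone, was present in 18 NB, 3 NBL and no other cells, and Tmpo, a lamina protein, in 14 NB and 5 NBL cells, the populations in which Rrm2 was also most often present. Of the G1 to S list, 6 of 27 were measured: Ccnd2, cyclin D2, was present in 34 of 35 NB, 25 of 27 NBL and 30 of 40 OligNBL cells and in 2 of the 11 Egfr cells, and Cdk4 in 21 OligNBL cells.

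The ligands of EGFR and the other ErbB receptors, 14 listed genes, were not analysed here. Of 19 targets and regulators of EGF signalling, 4 were measured. Spry2, a feedback inhibitor, was present in 15 NB, 5 NBL, 24 OligNBL, 9 OL and 3 O cells and in 1 of the 11 Egfr cells, CRBT185 (369). Gab1, a docking adaptor, was present in 16 OligNBL cells and Etv1 in 17 NBL cells. Gab1, Etv1 and Dusp4 were each present in 0 of the 11. In the 40 other Tomato+ cells Spry2 was present in 11, Gab1 and Etv1 in 3 each and Dusp4 in 0. Of the transit amplifying progenitor list 6 genes besides Egfr were measured. Pclaf, a PCNA partner, was present in all 11 Egfr cells and in 17 of the 40 other Tomato+ cells, and Dlx1, a homeobox gene of the interneuron lineage, in 7 of the 11 and 4 of the 40, with 6146 in CRBT184. Ccnd2 was present in 2 of the 11 and 21 of the 40. Dlx2, Fabp7 and Top2a were present in 0 of the 11 and in 1, 0 and 0 of the 40.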

How the data were processed

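Each sample is 1 sorted cell, read by SMART-Seq2. The submitters' processing notes name kallisto, limma and build GRCm38, with versions not given in the sources used here. As deposited by the authors, values are in a table named as estimated counts, but they behave as a normalized signal: the 8 highest values are equal in all cells (tolerance 1e-06). Depth per cell is therefore unknown, and no count model was used.

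Cells were grouped by population label, and doublets were not called. Presence meant a place among a cell's 500 highest genes; level was the mean of log2(value + 1), and a difference of at least 1 was counted, with no test, as each population is 1 sample. Sets of alike cells were joined by average linkage at a mean correlation of 0.4, without the 9 genes. Of the 20 sets, 4 held cells of more than 1 population. Named genes were the 9, the 3 most like each, and up to 4 per list (6 for S phase) by cells present; other list genes, such as Orc6, Rpa1, Birc5 and the markers in the Egfr cells, were named after their values were seen. A few of the genes picked this way are left out of the text. Members and lists were chosen with earlier results of these data known. Alternatives changed the presence rule, the pseudocount, the cells used and their weighting; a value of at least 1000 and leaving out 4 stretches of alike cells were chosen after seeing the data. Levels were tested on simulated data. The work was done in Python 3.11.15 (numpy 2.4.6, scipy 1.17.1, pandas 2.3.3, matplotlib 3.10.9).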

Additional observations from a re-analysis of the deposited data

How the results depend on the processing

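With any value above 0 as presence, replication genes per cell were 2.06 in NB, 2.37 in NBL, 1.52 in OligNBL and 2.10 in O, and OligNBL minus NBL was -0.85. The shares with at least 2 were then 62.9% (NB), 74.1% (NBL), 57.5% (OligNBL), 72.7% (OL) and 48.3% (O), and cells with Egfr and a replication gene were 1 in NB, 2 in OligNBL and 5 in O. Among the 250 highest genes the shares were 5.71% (NB), 0% (NBL) and 0% (OligNBL), with 4 such Egfr cells in OL and 1 in O; cells with at least 1000 genes gave 5 in OL. At values of at least 1000 the shares were 0% in NB, NBL, OligNBL and O and 4.55% in OL, Egfr was in 4.55% of OL and 0% of O cells, and such Egfr cells were 1 in OL and 0 in O.

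Sets of alike cells were left out in turn, within 1 population at a time. OL minus O in replication genes per cell then ran from -0.08 to 2.06 and was negative without OL cells CRBT183 to CRBT190. The share with at least 2 ran from 7.14% to 64.3% in OL and from 0% to 3.33% in OligNBL; the Egfr share in OL ran from 0% to 57.1%, and its cells with a replication gene from 0 to 8. Without OL cells CRBT183 to CRBT190, 2 genes differed by at least 1 between OL and O and 3 between OligNBL and OL. Across leaving out each of 4 stretches, the lowest value being without CRBT183 to CRBT190, OL minus O ran from -0.73 to 1.96 (Gins2), -0.96 to 2.95 (Cdc6), -0.60 to 2.31 (Tipin) and -0.87 to 1.83 (Egfr). OligNBL minus OL ran from -2.56 to 0.12 (Gins2) and -2.65 to 0.06 (Egfr), the highest without the same cells. Pcna in OligNBL minus NBL ran from -0.37, without OligNBL cells CRBT101 to CRBT110, to 1.03; without NB cells CRBT22 and CRBT46 to CRBT56, 1 gene differed by at least 1 in NBL minus NB. Over such leave-outs the genes differing numbered 1 to 2 (NBL minus NB), 2 to 6 (OL minus O) and 3 to 7 (OligNBL minus OL).

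Genes differing by at least 1 were 1 (NBL minus NB), 0 (OligNBL minus NBL) and 1 (O minus NB) with a pseudocount of 10, 4 (NBL minus NB) and 7 (O minus NB) with 0.1, and 1 (NBL minus NB) with sets weighted equally. The median Spearman correlation of the 6 pairs was 0.63. Joining at 0.5 gave 35 sets. The cause of these shifts was not tested. No paired analysis was possible because no label ties cells to mice, and no test was made.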
